A study of Mus musculus with 24 samples.

Results

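The genes described are the nucleolar ribosome biogenesis genes of mouse microglia, 51 protein-coding genes of the 55434 genes in the count table. They were taken by symbol: every gene whose name starts with Utp, Nop, Rrp, Nol, Noc or Bop, together with Wdr43, Wdr75, Heatr1 and Polr1a to Polr1e. The set was picked because Heatr1, Rrp12 and Utp3 differed between cytokine-treated and unstimulated cells, so the cytokine values below are a description of these genes. A gene is there named as called where its adjusted p over all genes was under 0.05, and since the set was chosen on these contrasts, such counts support nothing about it. By name alone the rule also takes Nol3, Nol4, Nol4l and Noct, whose known roles lie outside ribosome assembly, which leaves 47 assembly members.

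The study asked about the kinase IKBKE in mice prone to lupus and its brain symptoms. RNA was sequenced from brain cells selected for CD11b, a surface protein of microglia and other myeloid cells, in 24 libraries that form 8 groups of 3. Neonatal MRL/lpr cells grew for 48 h in culture, with 10% serum. They were then given 1 cytokine (IFNa, IFNg, IL-6 or TNFa) or the mixture of these for 6 h, or were left unstimulated. The adult groups are untreated, uncultured cells of MRL/lpr and MRL/MpJ mice aged 16 weeks. All neonatal groups are MRL/lpr and carry, like the adult MRL/lpr mice, the lpr mutation of Fas in every cell, while MRL/MpJ lacks it. The cytokine doses, and whether libraries of a group come from separate animals or cultures, are not given in the labels, so a p-value here measures only the spread between these libraries.

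Ribosomes are built in the nucleolus. RNA polymerase I copies the ribosomal DNA into a long precursor RNA, on which the small subunit processome (the UTP complexes, the U3 snoRNP and many further factors) folds and cuts the part that becomes the 40S subunit. Another set of assembly factors builds the 60S subunit, and snoRNPs guide the chemical modification of the ribosomal RNA. In many cells MYC increases the transcription of these genes, and in myeloid cells cytokines change growth and protein synthesis.

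Total counts were 10.08 to 19.32 M per library. Levels are given as CPM, counts per M counts after TMM scaling over all 24 libraries. Csf1r and other microglial markers were present in every group. Tmem119 and P2ry12, which mark mature microglia in the brain, were low in unstimulated neonatal cells (5.47 to 7.47 and 16.4 to 26.5 CPM) and at 2885 CPM or more in every adult library. The 7 astrocyte markers summed to 337 to 435 CPM in the 6 neonatal libraries numbered replicate 1, and to 37.9 to 110 CPM in the other neonatal libraries. Neonatal counts are therefore also given without the 6 libraries of replicate 1. Fas had 0.306 to 1.43 CPM in adult MRL/lpr and 0.212 to 0.72 CPM in adult MRL/MpJ libraries, too few reads to check the strain labels.

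Per kb of gene length, the most abundant members were Rrp1, a 60S factor, Nop53, which helps to trim the 5.8S precursor, and Utp3, a small subunit processome protein. Over the 6 adult libraries their levels were 43.2 ± 2.6 (Rrp1), 31.8 ± 7.8 (Nop53) and 30.5 ± 6.6 (Utp3) CPM per kb (SD, n = 6). Over the 18 neonatal libraries, Utp3 came first at 70.3 ± 47.9 CPM per kb (SD, n = 18), with a range of 29.1 to 151 CPM per kb. That place came from the IFNa (118 ± 26) and mixture (148.1 ± 2.7) libraries, while in unstimulated cells Utp3 had 34.8 ± 1.3 and Rrp1 54.6 ± 3.9 CPM per kb (SD, n = 3). Rrp1 (54.2 ± 5.6) and Nop53 (36.4 ± 5.9) varied far less across the same 18 libraries. The lowest members were Noct, Nol3 and Nol4 in adult cells and Utp14b, Nol4 and Nol3 in neonatal cells, all under 0.4 CPM per kb on average.

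Many members stood at other levels in cultured neonatal than in uncultured adult cells, and Rrp1b and Noct are given as examples. Rrp1b, a nucleolar paralogue of Rrp1, had 31.4 to 62.9 CPM in the 6 adult libraries and 4.88 to 16.7 CPM in the 18 neonatal ones. Noct (nocturnin, an NADP(H) phosphatase) showed the opposite order, with 0.851 to 2.43 CPM in adult and 25.6 to 87 CPM in neonatal libraries. The ranges do not overlap for either gene. They are also separate for Rrp7a, Polr1d, Noc4l, Nol12, Bop1, Rrp12 and Utp18, all lower in adult cells, and for Utp25, higher in adult cells. The share of all genes with separate ranges was not counted. Age, culture and serum differ together between these libraries and cannot be told apart, so these levels were not tested.

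The promoters of the members are shown because many of the genes differed together with the cytokine mixture (below). RefSeq windows (GRCm38.p6, the build also called mm10) of 300 bases, from 250 bases before to 50 after the start, were found for 42 of the 51 members. Sets of letters were searched on both strands. CACGTG, the E-box bound by MYC and MAX among others, was in 9 of 42 member windows (21.4%) and in 7.24% of all 27025 windows. CCGGAAG, an ETS site, was in 15 of 42 (35.7%) and in 9.12% of all windows. The shares were 31.0% and 37.9% for CCAAT (NF-Y), and 0 and 2.81% for GCGCATGC, part of the NRF1 site. Of the 25 members called lower with the mixture that have a window, 7 held CACGTG and 10 held CCGGAAG, and of the 6 called higher, 2 held CACGTG and 2 held CCGGAAG. These matches are descriptions of letters, not of bound sites. The windows of all genes were not matched to the members for expression or base content. Printed next, from 5′ to 3′ on the gene's strand and ending at or before the start of transcription, are the exon-free upstream stretches of members called higher (Utp3, Nol10, Rrp7a) or lower (Nop2, Nol11, Utp18) with the mixture, with CACGTG and CCGGAAG on either strand in capitals.
Utp3: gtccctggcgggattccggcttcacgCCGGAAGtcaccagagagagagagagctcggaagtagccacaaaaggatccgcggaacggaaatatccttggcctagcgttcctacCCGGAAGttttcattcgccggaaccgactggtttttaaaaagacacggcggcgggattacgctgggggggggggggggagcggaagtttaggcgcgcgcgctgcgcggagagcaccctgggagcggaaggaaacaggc
Nol10: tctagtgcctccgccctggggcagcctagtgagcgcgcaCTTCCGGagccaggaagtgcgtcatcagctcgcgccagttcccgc
Rrp7a: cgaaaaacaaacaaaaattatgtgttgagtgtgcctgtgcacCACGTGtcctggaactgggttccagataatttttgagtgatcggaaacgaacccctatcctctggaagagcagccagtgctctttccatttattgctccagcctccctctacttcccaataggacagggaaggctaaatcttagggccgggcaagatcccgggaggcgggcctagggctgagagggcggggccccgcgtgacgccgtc
Nop2: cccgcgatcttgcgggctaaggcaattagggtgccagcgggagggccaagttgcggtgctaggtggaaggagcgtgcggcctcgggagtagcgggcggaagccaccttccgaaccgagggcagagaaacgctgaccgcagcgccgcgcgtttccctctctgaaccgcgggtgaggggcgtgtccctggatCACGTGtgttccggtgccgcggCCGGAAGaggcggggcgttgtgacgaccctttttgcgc
Nol11: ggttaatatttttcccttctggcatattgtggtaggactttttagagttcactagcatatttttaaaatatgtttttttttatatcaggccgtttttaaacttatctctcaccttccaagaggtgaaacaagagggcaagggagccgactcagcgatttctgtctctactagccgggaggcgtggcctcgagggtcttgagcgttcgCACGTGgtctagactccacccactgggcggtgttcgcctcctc
Utp18: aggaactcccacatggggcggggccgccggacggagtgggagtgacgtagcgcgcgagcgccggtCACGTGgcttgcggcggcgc
The Utp3 stretch is chr5:88554212-88554461 (plus strand) and holds CCGGAAG at 224 and at 138 bases before the start, counted to the first base of the match. The Nol10 stretch is chr12:17348374-17348457 (plus strand), with the reverse complement of CCGGAAG 80 bases before the start. Rrp7a (chr15:83122802-83123051, minus strand) has CACGTG at 208 bases, and Nol11 (chr11:107189382-107189631, minus strand) has it at 43 bases. Utp18 (chr11:93885767-93885851, minus strand) has CACGTG at 20 bases before the start, and its window also holds CCGGAAG at 106 bases, outside the printed stretch. Nop2 (chr6:125131633-125131882, plus strand) has both, CACGTG at 60 and CCGGAAG at 38 bases. CACGTG is thus present both in members called higher and in members called lower with the mixture. Each printed stretch holds CACGTG or CCGGAAG, while 7 of the 25 members called lower held CACGTG, so the printed genes are not typical of the members.

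Adult MRL/lpr and MRL/MpJ microglia were compared to ask how the genes differ with the lupus-prone genotype. The set was picked on the cytokine contrasts and not on this one, which is the one tested. The members and lists were still chosen with earlier results of these data known. Ribosome biogenesis genes moved in both directions. Of 49 members tested, 12 rose and 10 fell in MRL/lpr cells (edgeR, adjusted p under 0.05 over 13799 genes). The largest rises were those of Nol8 and Utp14a, both over 2-fold, and the largest fall was that of Nop9, to about 0.5 of the MRL/MpJ level. Of all genes tested, 24.1% were called higher and 21.6% lower, so the members' shares (24.5% and 20.4%) were near the background. Their median log2 fold change was 0.10, and that of all genes was 0.01.

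**Figure D1:**
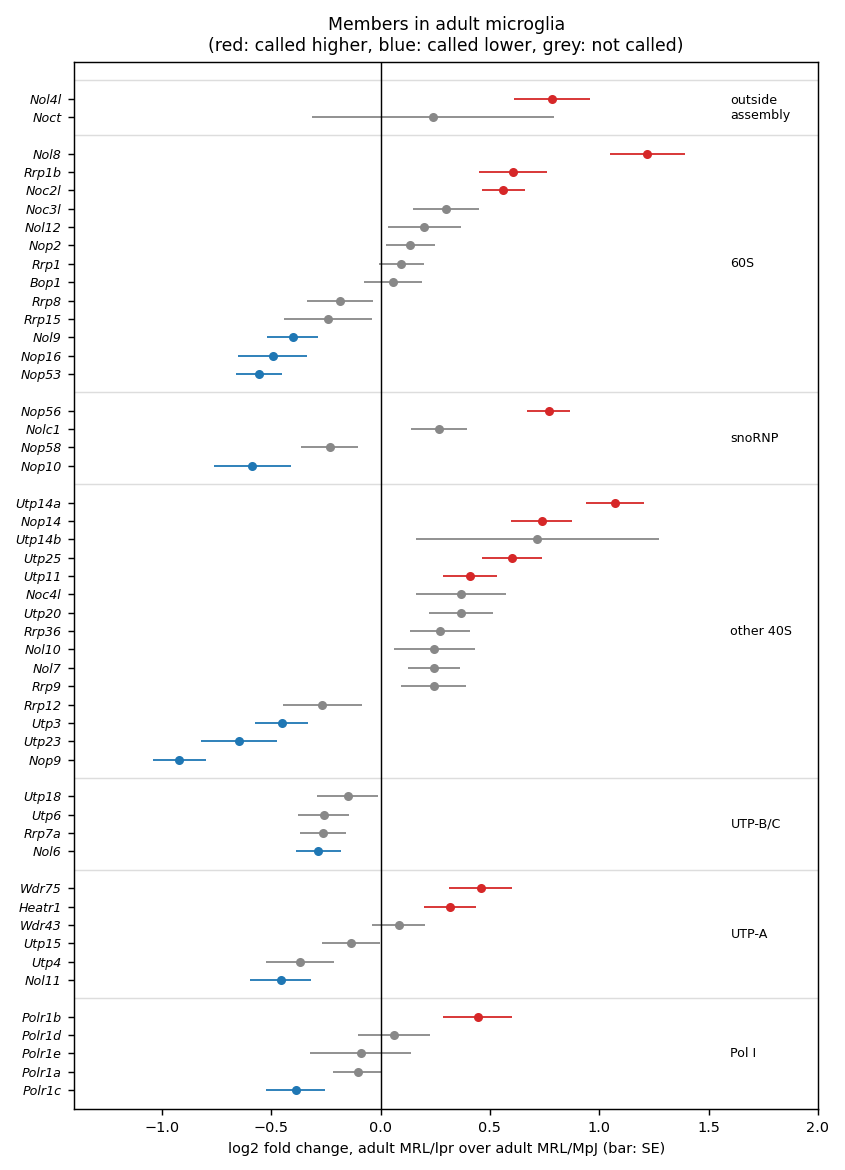
The log2 fold change of each of the 49 tested members between adult MRL/lpr and MRL/MpJ microglia (horizontal axis, bars are SE, 3 libraries per strain), grouped by role. Called members lie on both sides of 0 in the RNA polymerase I, UTP-A, other 40S, snoRNP and 60S groups, from -0.92 (Nop9) to 1.22 (Nol8), while with total counts in place of TMM 24 are called higher and 2 lower.

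Among the RNA polymerase I subunits, 1 of 5 rose and 1 fell. Polr1b, the second largest subunit (mm10 chr2:129100995-129126594), had 25.4, 20.2 and 25.3 CPM in the MRL/lpr and 19.1, 15.33 and 20 CPM in the MRL/MpJ libraries, with no overlap. Its log2 fold change was 0.44 ± 0.16 (SE, edgeR adjusted p = 0.0371). Polr1c, a subunit shared with RNA polymerase III, had 25, 29.6 and 23 CPM in MRL/lpr and 33.7, 37.8 and 34.8 CPM in MRL/MpJ. It fell by 0.39 ± 0.14 on the log2 scale (adjusted p = 0.0346).

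Of the 6 UTP-A proteins, the t-UTP complex that joins the precursor first and is also needed for its transcription, 2 rose and 1 fell. Heatr1 (ENSMUSG00000050244, mm10 chr13:12395027-12440289), the UTP10 homologue, had 71.4, 55.8 and 63.2 CPM in MRL/lpr and 56, 48.9 and 55.2 CPM in MRL/MpJ. The lowest MRL/lpr library lay below the highest MRL/MpJ library, and the log2 fold change was 0.32 ± 0.12 (adjusted p = 0.0482). Wdr75 had 20.4, 24.5 and 24.2 against 16.7, 18.8 and 17.1 CPM, a log2 fold change of 0.46 ± 0.14 (adjusted p = 0.0219). Nol11, which binds the UTP-A complex, had 27.4, 30.5 and 28.9 CPM in MRL/lpr and fell by 0.46 ± 0.14 from 42.6, 34.3 and 47.8 CPM in MRL/MpJ (adjusted p = 0.0182). Among the 4 UTP-B and UTP-C proteins, none rose and 1 fell: Nol6 (UTP22) had 57.3 to 61.5 CPM in the MRL/lpr libraries, below 69.7 to 81.0 CPM in those of MRL/MpJ, a log2 fold change of -0.28 ± 0.10 (adjusted p = 0.0414).

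Of the 15 other small subunit factors, 4 rose and 3 fell, Utp14a and Nop9 by the most. Utp14a (ENSMUSG00000063785, mm10 chrX:48256862-48282453), which activates the helicase that releases U3, had 39.5, 34.8 and 33.9 CPM in MRL/lpr and 17.5, 19.5 and 17 CPM in MRL/MpJ. It rose by 1.07 ± 0.13 on the log2 scale (adjusted p = 6.4e-05), and 11.45% of its exon bases are shared with 9530027J09Rik on the opposite strand. Utp14b is a retrocopy of Utp14a, so reads can be split between the copies, and Utp14b was low, at 2.01 ± 0.31 against 1.27 ± 0.84 CPM (SD, n = 3). Nop14, a partner of Utp14 proteins and Noc4l in 40S assembly, rose by 0.74 ± 0.14 (23.5 to 25.8 against 14.0 to 16.29 CPM, adjusted p = 0.00116). Nop9 (ENSMUSG00000019297, mm10 chr14:55745693-55755500), an RNA-binding protein that holds the precursor of the 18S RNA, had 22.9, 26.8 and 24.8 CPM in MRL/lpr and 48.6, 52.7 and 46.1 CPM in MRL/MpJ. It fell by 0.92 ± 0.12 (adjusted p = 0.000108). The antisense neighbour Cideb covers 29.9% of the exon bases of Nop9, and the strand setting of the counting is not given, so its reads cannot be told apart from those of Cideb there. Utp23 fell by 0.65 ± 0.17 (9.56 to 11.9 against 15.2 to 20.5 CPM, adjusted p = 0.00958), and 11.53% of its exon bases are shared with Gm34678 on the opposite strand. Utp3 (ENSMUSG00000070697, mm10 chr5:88554462-88556090) had 41.3, 42.2 and 39 CPM in MRL/lpr, below 66.7, 53.5 and 55.3 CPM in MRL/MpJ, and fell by 0.45 ± 0.12 (adjusted p = 0.00866). Rrp12 (ENSMUSG00000035049, mm10 chr19:41862851-41896173), a HEAT-repeat protein of 40S export and maturation, had 12.8, 11.7 and 14.1 against 16.7, 12.9 and 19 CPM. These overlap, and its log2 fold change of -0.27 ± 0.18 did not pass the test (adjusted p = 0.25).

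Of the 4 snoRNP proteins, 1 rose and 1 fell. Nop56 (ENSMUSG00000027405, mm10 chr2:130274430-130279313), a core protein of the box C/D snoRNPs that guide 2′-O-methylation, had 81.6, 85.2 and 81.3 CPM in MRL/lpr and 52.1, 50.5 and 49.9 CPM in MRL/MpJ. It rose by 0.77 ± 0.10 (adjusted p = 8e-05). The gene hosts 5 annotated snoRNA genes, of which 4 share exon bases with it on the same strand. Nop58, its partner in the same particle, was at -0.23 ± 0.13 and did not pass, and it was at 0.026 with total counts in place of TMM. Nop10, of the box H/ACA snoRNPs that guide pseudouridylation, fell by 0.59 ± 0.18 (10.3 to 14.4 against 17.5 to 20.6 CPM, adjusted p = 0.0172).

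Of the 13 factors of 60S assembly, 3 rose and 3 fell. Nol8 (ENSMUSG00000021392, mm10 chr13:49653078-49679016), an RNA-binding nucleolar protein, had 18, 18 and 21.6 CPM in MRL/lpr and 7.48, 9.1 and 9.29 CPM in MRL/MpJ. It rose by 1.22 ± 0.17 (adjusted p = 0.000155). Rrp1b rose by 0.60 ± 0.16 (49.8 to 62.9 against 31.4 to 47.4 CPM, adjusted p = 0.00757). Noc2l, also known as an inhibitor of histone acetyltransferases, rose by 0.56 ± 0.10 (116 to 127 against 83.6 to 91.6 CPM, adjusted p = 0.000654), and 20.9% of its exon bases are shared with Samd11 on the opposite strand. Outside ribosome assembly, Nol4l rose by 0.78 ± 0.17 (23.4 to 37.1 against 17.6 to 20 CPM, adjusted p = 0.00295). The other called members, Utp25, Utp11, Nop53, Nop16 and Nol9, had log2 fold changes between -0.56 and 0.60, and the 27 that did not pass lay between -0.37 and 0.72.

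Several of the smaller adult calls were lost when 1 library was left out, which also leaves fewer samples in the fit. The Heatr1 call was lost without any 1 of the libraries other than MRL/lpr replicate 2 (adjusted p 0.073 to 0.207), where its log2 fold change was 0.24 to 0.35 beside 0.32 with all 6. That of Nol6 was lost without any 1 other than MRL/MpJ replicate 2 (0.0583 to 0.164), at -0.29 to -0.24 beside -0.28. That of Polr1c was lost without any 1 other than MRL/lpr replicate 2 (0.0515 to 0.174), at -0.43 to -0.30 beside -0.39. Polr1b was not called without MRL/MpJ replicate 1 or 2 or MRL/lpr replicate 1 or 3 (0.0646 to 0.13), nor Nol11 without MRL/MpJ replicate 1 or 3 or MRL/lpr replicate 1 or 3 (0.0546 to 0.083). Wdr75 was not called without MRL/MpJ replicate 1 or 3 or MRL/lpr replicate 3 (0.0561 to 0.0891), Nop10 without MRL/MpJ replicate 2 or MRL/lpr replicate 1 or 3 (0.0507 to 0.0918), nor Utp23 without MRL/lpr replicate 1 (0.058). Nop16 was not called without MRL/MpJ replicate 2 or MRL/lpr replicate 1 or 3 (0.0778 to 0.104), Nol9 without replicate 1 of either strain (0.0575 to 0.0632), nor Utp11 without MRL/MpJ replicate 1 or 3 (0.0525 to 0.0633). The size of the other lost calls ran from 0.34 to 0.48 for Polr1b, -0.44 to -0.35 for Nol11, 0.42 to 0.44 for Wdr75, -0.53 to -0.48 for Nop10, -0.49 to -0.34 for Nop16, -0.39 to -0.35 for Nol9 and 0.36 to 0.39 for Utp11, and was -0.55 for Utp23. The number that fell was 3 without MRL/lpr replicate 1, where 2114 of all 14208 genes were called lower. It was 5 without MRL/lpr replicate 3, where 2104 of 14167 genes were called lower. With all 6 libraries, 2982 of 13799 genes were called lower.

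The split of the adult calls also depended on the scaling. In the fit of the 6 adult libraries, TMM factors were 1.08 to 1.11 for MRL/lpr and lower, 0.9003 to 0.929, for MRL/MpJ. With total counts in place of TMM, the median log2 fold change of all genes moved from 0.01 to 0.27, 24 members were called higher and 2 lower, and 34.7% of all genes were called higher and 10.4% lower. Nol8, Utp14a, Nop56, Nop14, Noc2l, Rrp1b, Nol4l, Nop9 and Nop53 kept their calls and directions under both scalings, while Utp3, Utp23, Nop10, Nol11, Nol6, Polr1c, Nop16 and Nol9 were no longer called. In the same adult libraries the 10 T and NK cell markers had a summed level of 52.3 to 68.6 CPM in MRL/lpr libraries and of 19 to 31.7 CPM in MRL/MpJ libraries, and each of them had reads in both strains. The 10 microglial markers summed to 36680 to 42300 and 71570 to 74700 CPM, and the 18 immediate early and stress genes to 4216 to 4571 and 2264 to 2471 CPM. Of 8 oligodendrocyte markers 4 fell, with a sum of 188 to 296 against 319 to 408 CPM. Of 9 border macrophage markers 1 rose and 6 fell, with a median log2 fold change of -1.37 and a sum of 379 to 648 against 547 to 667 CPM. Their part in the differences was not tested. In bulk RNA, fewer cells of a type and less RNA per cell cannot be told apart.

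In cultured neonatal cells, Heatr1, Rrp12 and Utp3, for which the set was chosen, each had another order of the groups. All 5 contrasts use the same 3 unstimulated libraries, and the values are a description. Heatr1 had 65.8, 60.5 and 70.1 CPM in unstimulated cells. It had 107, 109 and 125 CPM with IFNg and 137, 144 and 168 CPM with IL-6, and every library of both groups lay above the unstimulated ones. With IFNa (45.4, 52 and 37.9 CPM) and with the mixture (37.5, 31.7 and 32 CPM) every library lay below them, and with TNFa (46.4, 49.4 and 61.9 CPM) the groups overlapped. The group means thus ran from 33.7 ± 3.2 CPM with the mixture to 150 ± 16 CPM with IL-6 (SD, n = 3).

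Rrp12 had 22.7, 25.7 and 24.6 CPM in unstimulated cells and 93.1, 89.1 and 71.3 CPM with IFNg, a log2 fold change of 1.82 ± 0.19 (SE). With IL-6 it had 38.3, 38.8 and 45.4 CPM and with TNFa 28.9, 34.4 and 34.9 CPM. With IFNa (21.2, 27.1 and 23.9 CPM) and with the mixture (36.1, 19.5 and 28.2 CPM), which also holds IFNg, its libraries overlapped the unstimulated ones. The 3 mixture libraries all lay below the 3 IFNg libraries.

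Utp3 had 56.9, 54.5 and 58.6 CPM in unstimulated cells, 179, 240 and 157 CPM with IFNa and 246, 238 and 240 CPM with the mixture. These were log2 fold changes of 1.74 ± 0.13 and 2.04 ± 0.14. With IFNg it had 82.9, 91.6 and 82.4 CPM, also above every unstimulated library, and with TNFa 60.2, 65.6 and 62.9 CPM. With IL-6 (47.3, 50.2 and 49.5 CPM) all libraries lay below the unstimulated ones. Heatr1 and Utp3 therefore lay on opposite sides of the unstimulated level with IL-6, IFNa and the mixture, and on the same side with IFNg.

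**Figure D2:**
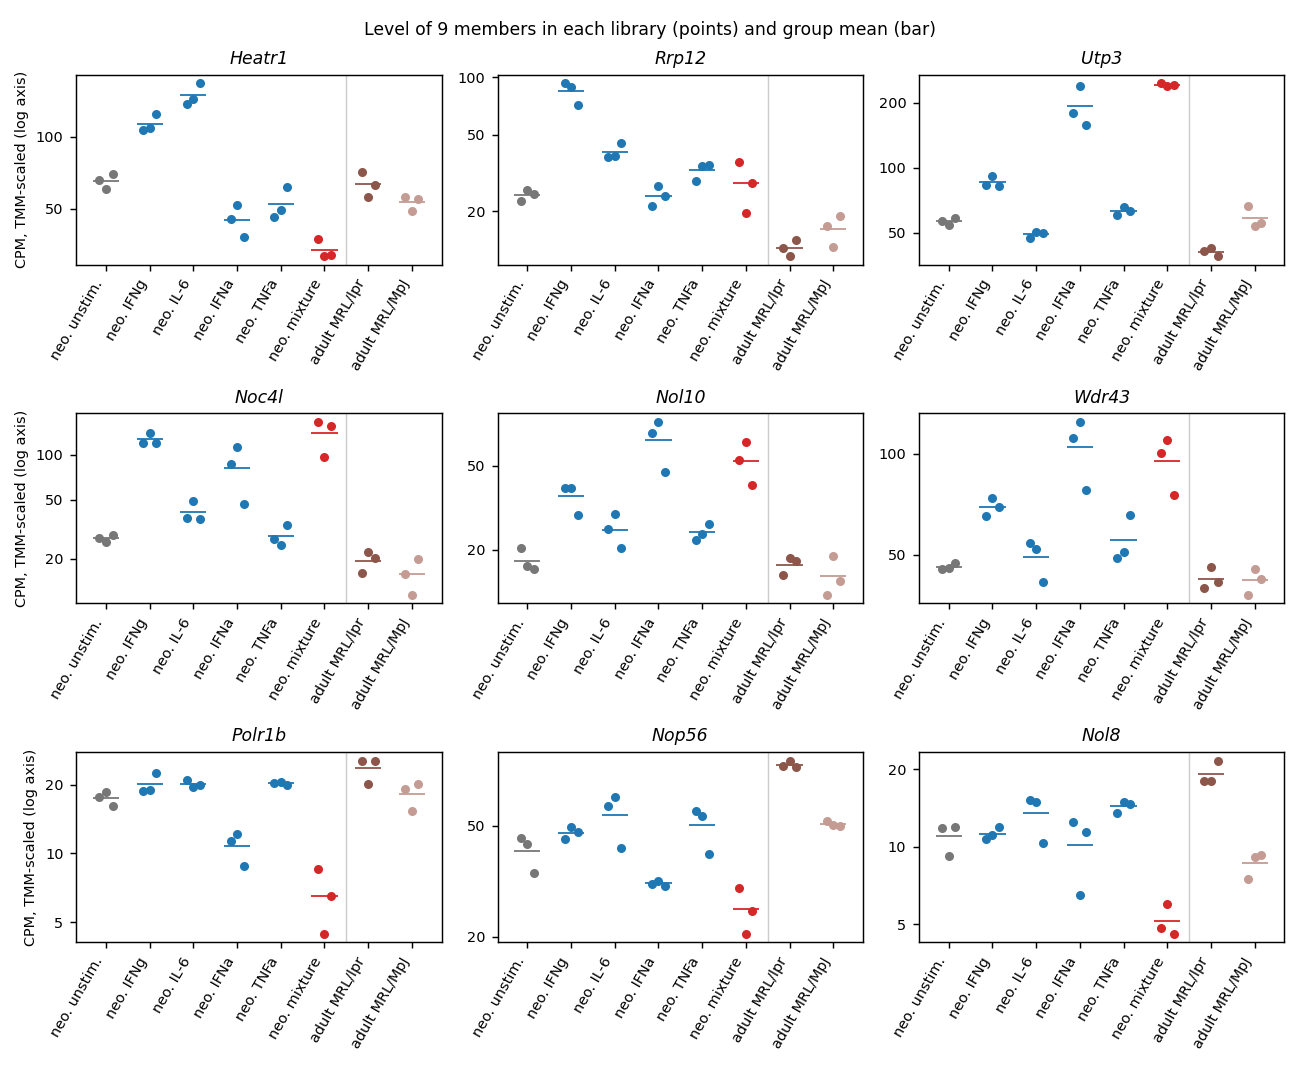
The level of 9 members in each of the 24 libraries (points, TMM-scaled CPM on a log axis), with the group mean as a bar. Grey is unstimulated, blue single cytokines, red the mixture, brown adult cells; by group mean over the neonatal cells, Heatr1 and Polr1b are lowest and Utp3 and Noc4l highest with the mixture.

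The mixture gave the largest number of called members among the 5 contrasts: of 50 members tested, 7 were called higher and 26 lower, beside 15.7% and 16.4% of all genes. The median log2 fold change of the 47 assembly members was -0.50 and that of all genes -0.05. Without the replicate 1 libraries, 6 were called higher and 20 lower, beside 13% and 11.1% of all genes. With total counts in place of TMM the median of all genes moved to -0.47 and that of the members from -0.46 to -0.87, with 5 called higher and 32 lower. Of all 14626 genes in that fit, 1547 were called higher and 4993 lower. The 3 mixture libraries lay below all 15 other neonatal libraries in 16 of the 50 members and in 3.97% of all genes. They lay above them in 1 member, Rrp7a, and in 5.01% of all genes. Rrp7a shares 12.53% of its exon bases with Serhl on the opposite strand. Other markers differed in the same libraries. The 18 immediate early and stress genes summed to 4056 to 4789 CPM with the mixture and 1568 to 1760 CPM unstimulated, with 11 called higher and 1 lower. The 6 endothelial markers summed to 162 to 228 against 24.4 to 52.8 CPM (2 of 6 called higher), and the 8 oligodendrocyte markers, Opalin at 0 in both groups, to 324 to 430 against 104 to 151 CPM (2 of the 5 tested called higher and 1 lower). Both sums were also higher with IFNa, at 178 to 218 and 299 to 369 CPM. Their part in the members' values was not tested.

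By role, the members called lower with the mixture were spread over all the assembly roles of the members. They were 3 of 5 RNA polymerase I subunits, 5 of 6 UTP-A proteins, 2 of 4 UTP-B and UTP-C proteins, 5 of 15 other small subunit factors, 3 of 4 snoRNP proteins and 8 of 13 factors of 60S assembly. Polr1b had 17.7, 18.5 and 16.1 CPM in unstimulated and 8.54, 4.46 and 6.51 CPM in mixture libraries, a log2 fold change of -1.48 ± 0.19. Polr1e, which helps to recruit the polymerase, was at -1.49 ± 0.31 (8.63, 5.11 and 6.31 against 2.14, 1.66 and 3.55 CPM). Rrp1b had 15.28, 12.16 and 10.0 CPM in unstimulated and 6.09, 4.99 and 4.88 CPM in mixture libraries, a log2 fold change of -1.28 ± 0.24. For all 3 genes every mixture library lay below every unstimulated one. Nop56, higher in adult MRL/lpr cells, had 45, 43.2 and 33.7 CPM unstimulated and 30, 20.6 and 24.8 CPM with the mixture.

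The members called higher with the mixture were 4 small subunit factors, Utp3, Noc4l, Nol10 and Utp23, the UTP-A protein Wdr43, the UTP-C protein Rrp7a, and Noct. Noc4l, the partner of Nop14 in 40S assembly (mm10 chr5:110648418-110653417), had 27.6, 26.1 and 28.8 CPM in unstimulated cells and 166, 96.3 and 156 CPM with the mixture, a log2 fold change of 2.28 ± 0.26. Nol10, a processome protein (mm10 chr12:17348458-17430095), had 20.3, 16.8 and 16.31 CPM unstimulated and 53.2, 64.4 and 40.4 CPM with the mixture (1.52 ± 0.22). Nop14 itself was at -0.74 with the mixture, so the partners Noc4l and Nop14 lay on opposite sides. Wdr43 was likewise the single UTP-A protein called higher, while the other 5 were called lower.

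**Figure D3:**
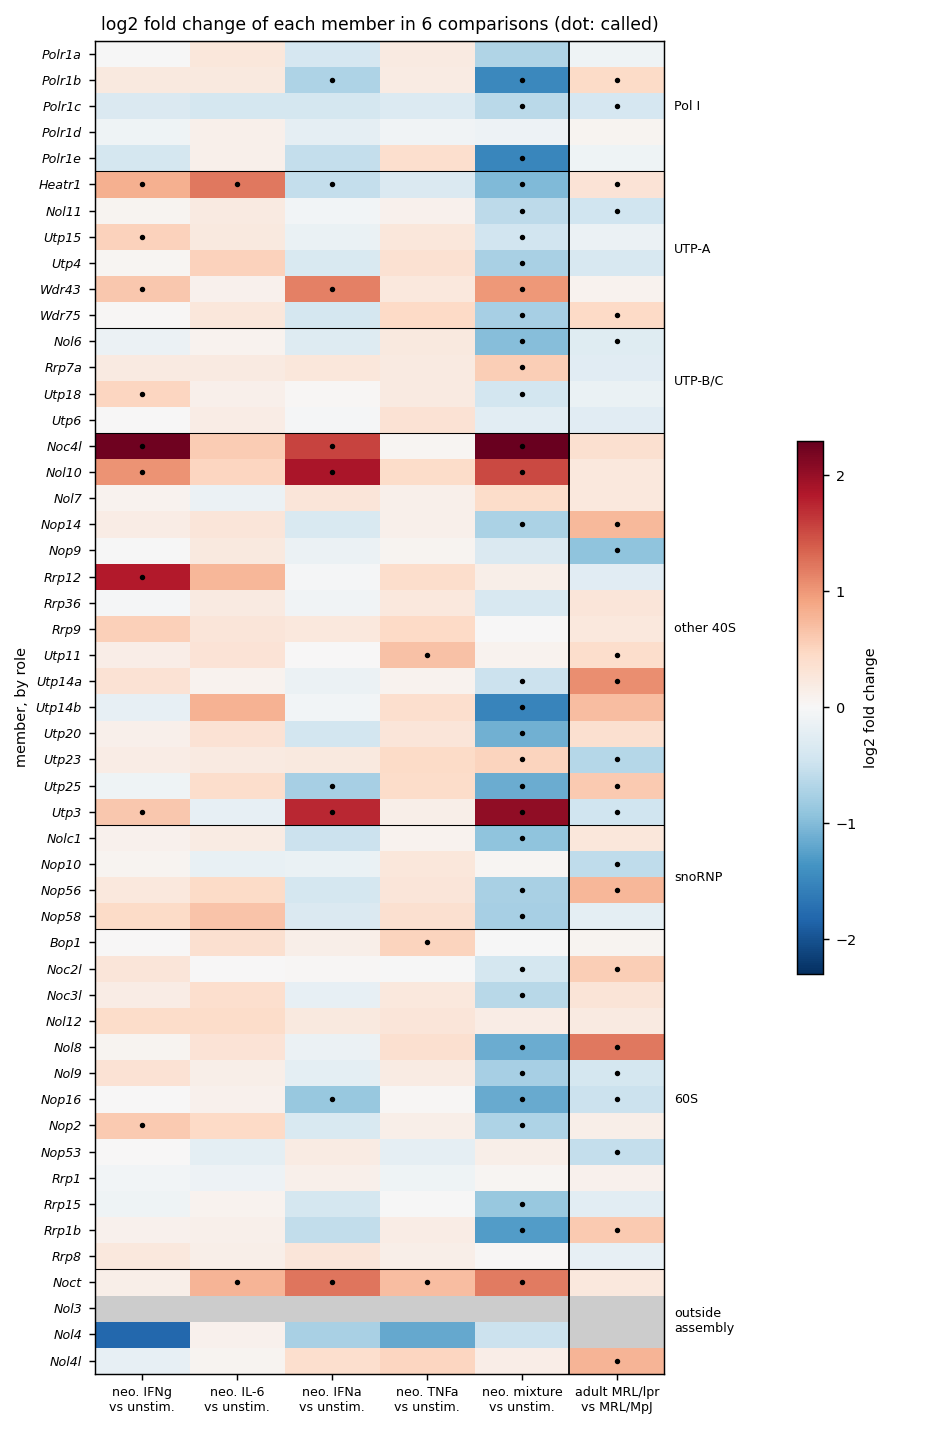
The log2 fold change (colour, red higher, blue lower) of the 51 members, by role, in the 5 neonatal contrasts with unstimulated cells and in adult MRL/lpr against MRL/MpJ. Dots mark an adjusted p under 0.05 and grey a gene not tested; the mixture column holds 26 members called lower and 7 called higher.

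With IFNg alone, 9 of 50 members were called higher and 0 lower, beside 8.57% and 4.32% of all genes. Of the 47 assembly members, 36 had a log2 fold change above 0 and 11 below. Their median was 0.11 and that of all genes -0.02. Noc4l had 120, 140 and 120 CPM, 2.23 ± 0.26 on the log2 scale, followed by Rrp12 and by Nol10 (39.1, 39.2 and 29.1 CPM, 1.04 ± 0.22). Among members with a neonatal mean of at least 5 CPM, the lowest were Polr1e (-0.41 ± 0.30), Polr1c (-0.33 ± 0.14) and Nol4l (-0.20). None of these was called. Without the replicate 1 libraries 3 members were called higher, beside 4.08% of all genes. With total counts 5 were called higher and 1 lower, beside 6.81% and 8.28% of all genes, and the median of all genes moved from -0.02 to -0.21.

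With IFNa alone, 5 were called higher and 4 lower, beside 9.41% and 5.07%. Nol10 (71.6, 80.2 and 46.5 CPM, 1.88 ± 0.22), Utp3, Noc4l (87, 112 and 46.7 CPM, 1.55 ± 0.26), Noct and Wdr43 (111, 124 and 78.1 CPM, 1.16 ± 0.18) were higher. Nop16 (-0.87 ± 0.27), Utp25 (-0.76 ± 0.19), Polr1b (-0.72 ± 0.18) and Heatr1 were lower. The number lower was 10, beside 11.1% of all genes, with the replicate number as a block. It was 2 without IFNa replicate 3 or without unstimulated replicate 1 or 2, and 0 without all replicate 1 libraries, where 1.97% of all genes were called lower and 5.67% higher. With total counts 5 were called higher and 9 lower, beside 8.14% and 10.7%. With TMM, 16 of the 47 assembly members had a log2 fold change above 0 and 31 below. Their median was -0.13 and that of all genes -0.04.

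With IL-6 alone, 2 members were called higher and 0 lower, beside 0.745% and 0.232% of all genes. They were Heatr1 (1.21 ± 0.15) and Noct (52.5, 40.1 and 49.2 CPM, against 25.6, 31.8 and 26.1 CPM unstimulated; 0.78 ± 0.17). Heatr1 is one of the genes the set was chosen for, and Noct lies outside ribosome assembly. Among members with a neonatal mean of at least 5 CPM, Rrp12 was next at 0.76 ± 0.19. The lowest of these were Polr1c (-0.40 ± 0.14), Nop53 (-0.23 ± 0.17) and Utp3 (-0.20 ± 0.13). Of the 47 assembly members, 41 had a log2 fold change above 0 and 6 below. Their median was 0.21 and that of all genes 0.002. With the block 6 members were called higher, beside 3.04% of all genes. Leaving out any 1 IL-6 or unstimulated library left 1 call, and so did leaving out all replicate 1 libraries, where 0.156% of all genes were called.

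With TNFa alone, 3 were called higher and 0 lower, beside 4.38% and 3.72%. Of the 47 assembly members, 40 had a log2 fold change above 0 and 7 below. Their median was 0.21 and that of all genes -0.02. Noct had 46.4, 47.1 and 44.8 CPM (0.71 ± 0.17), Utp11, a small subunit processome protein, 53.8, 51.5 and 49.7 against 33.6, 30.8 and 31.9 CPM (0.67 ± 0.17), and Bop1, of the PeBoW complex of 60S assembly, 63.6, 57.5 and 66.5 against 46.7, 41.3 and 41.9 CPM (0.51 ± 0.14). Among members with a neonatal mean of at least 5 CPM, the lowest were Heatr1 (-0.34 ± 0.15), Polr1c (-0.32 ± 0.14) and Nop53 (-0.21 ± 0.17). With the block 7 were called higher, beside 8.98% of all genes. The count was 1 without TNFa replicate 1 or 2 or unstimulated replicate 2, and 0 without unstimulated replicate 1 or 3. It was also 0 without all replicate 1 libraries, where 2.78% of all genes were called higher.

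**Figure D4:**
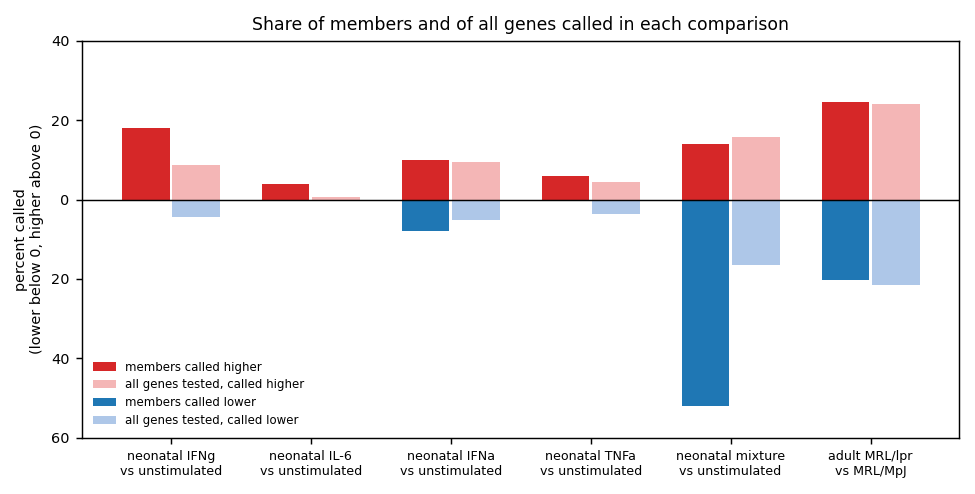
The percent called higher (above 0) and lower (below 0) among the members (dark bars, 49 or 50 tested) and among all genes tested (pale bars) in each comparison. With the mixture 52% of the members and 16.4% of all genes were called lower; in adult cells the dark and pale bars are of similar height.

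Some members placed a single group apart from all 15 other neonatal libraries. The IFNg libraries were the highest for Noc2l, Rrp12 and Utp15 (3 of 50 members, 0.875% of all genes). The IL-6 libraries were the highest for Heatr1 (0.773% of all genes) and the lowest for Utp3 (0.41%), and the TNFa libraries were the highest for Utp11 (2.67%). The unstimulated libraries were the highest for Polr1c (1.91%) and the lowest for Nol10 (1.23%), so all 15 stimulated libraries lay on 1 side of them for these genes.

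Other genes of the same pathway, from lists set down with the members, were counted in the same fits. Of 58 further nucleolar ribosome biogenesis genes, 1 was called higher and 26 lower with the mixture (1.72% and 44.8%), beside 15.7% and 16.4% of all genes. Their median log2 fold change was -0.41. Wdr12, of the PeBoW complex, was at -1.68 ± 0.26, Dkc1, the pseudouridine synthase of H/ACA snoRNPs, at -1.33 ± 0.34, Nat10, an RNA acetyltransferase, at -1.25 ± 0.21, and Dcaf13 at 0.62 ± 0.20. With IFNg the same list had 6 higher (10.3%) and 0 lower, beside 8.57% and 4.32% of all genes. With IL-6 it had 1 (1.72%) and 0, beside 0.745% and 0.232%. With IFNa it had 1 (1.72%) and 0, beside 9.41% and 5.07%, and with TNFa 5 (8.62%) and 0, beside 4.38% and 3.72%. With the replicate number as a block, it had 14 higher (24.1%) and 0 lower with IFNg, beside 14.7% of all genes called higher. The block gave 5 higher (8.62%) and 0 lower with IL-6, beside 3.04% called higher, and 9 (15.5%) and 0 with TNFa, beside 8.98%. With IFNa the block gave 2 higher and 8 lower, beside 11.1% of all genes called lower, and with the mixture 2 and 31, beside 20.5% and 22.6%. Myc, which increases the transcription of such genes in many cells, had 30.4, 26 and 23.6 CPM in unstimulated, 49.7, 50.6 and 39.6 CPM in IFNg and 21.4, 16.6 and 18 CPM in mixture libraries. It had 21 to 47.2 CPM with IL-6, 17 to 27.2 CPM with IFNa and 34.1 to 39 CPM with TNFa. Of 19 proliferation markers, 0 were called higher and 9 lower with the mixture, and their sum was 719 to 892 CPM against 1107 to 1167 CPM unstimulated. With TNFa, where no member was called lower, the same sum was 745 to 863 CPM, with 0 markers called higher and 4 lower. With the block, 14 of these markers were lower with the mixture and 7 with TNFa, beside 8.4% of all genes called lower with TNFa. The part of proliferation in the members' values was not tested.

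In adult cells, 16 of the 58 further nucleolar genes rose and 13 fell in MRL/lpr, 27.6% and 22.4%, near the shares of all genes. Dimt1, an 18S RNA methyltransferase, rose by 1.29 ± 0.25 (adjusted p = 0.00119), Gnl3 (nucleostemin) by 1.23 ± 0.16 (adjusted p = 0.000107) and Nvl, a 60S assembly ATPase, by 1.11 ± 0.16 (adjusted p = 0.000168). The largest falls were those of Imp3, a U3 snoRNP protein, by 0.84 ± 0.17 (adjusted p = 0.00152), Nhp2, of the H/ACA snoRNPs, by 0.76 ± 0.24 (adjusted p = 0.0223), and Nifk, by 0.71 ± 0.13 (adjusted p = 0.00105). With total counts in place of TMM the list had 30 higher and 2 lower, Imp3 and Nifk, beside the 34.7% and 10.4% of all genes. Of 15 RNA polymerase I initiation factors and further subunits, 4 rose and 4 fell (26.7% each), beside 24.1% and 21.6% of all genes. Taf1d and Taf1a, of the SL1 initiation factor, rose by 2.35 ± 0.16 (adjusted p = 9.47e-07) and 1.98 ± 0.28 (adjusted p = 0.000162), and the termination factor Ttf1 rose by 1.31 ± 0.19 (adjusted p = 0.000185). Those that fell were Rrn3, which links the polymerase to SL1, by 0.77 ± 0.11 (adjusted p = 0.0002), and the subunits Polr2l (-0.67), Znrd1 (-0.57) and Twistnb (-0.48). With total counts 6 were higher, and 1, Rrn3, lower. Of 11 MYC network genes tested, 3 rose and 1 fell (27.3% and 9.09%), beside the same shares of all genes. Mycl fell by 1.57 ± 0.18 (adjusted p = 3.76e-05), Mga rose by 1.16 ± 0.18 (adjusted p = 0.000266) and Mlxip by 0.99 ± 0.16 (adjusted p = 0.000308). Myc had 28.5 ± 4.4 CPM in MRL/lpr and 26.0 ± 5.1 CPM in MRL/MpJ (SD, n = 3), and its log2 fold change of 0.20 ± 0.17 did not pass the test (adjusted p = 0.368); with total counts it was 0.46 and called (adjusted p = 0.0411).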

How the data were processed

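The members, their roles and all gene lists were chosen with earlier results of these data known. The authors deposited raw counts per gene, with no normalisation, for 24 libraries (10.08 to 19.32 M counts each), and a gene length column in bases, per the file headers. The submitters' processing notes name cutadapt 2.1, STAR 2.7.1a and mm10; the library kit was directional, per the labels' protocols. How reads were counted, and with which strand setting, is not given in the sources used here. Of the 24 pairs of same-group libraries, 0 were identical and all differed by more than counting error.

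The edgeR quasi-likelihood test (edgeR 4.0.16 in R 4.3.3; filterByExpr, TMM, robust fit) was run on the counts of the 6 adult libraries (13799 genes passed the filter) and, separately, on those of the 18 neonatal libraries (14626 genes). Called means a Benjamini-Hochberg adjusted p under 0.05 over the genes in that fit. The filter left 49 members in the adult and 50 in the neonatal fit; Nol3 passed in neither and Nol4 in the neonatal one alone. The SE was derived from the log2 fold change and its F statistic. Same-numbered neonatal libraries deviated together (45 of 45 pairs with a correlation over 0.1, 0.184 to 0.687), which the data and not the labels show, so values with the replicate number as a block are given where a count moved by over 1.5 times. Of the 3 adult pairs, 2 were over 0.1, and they were not read as pairs.

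The text names Heatr1, Rrp12 and Utp3 throughout. In the adult comparison it names up to 3 called members of each role with the largest change, and those against the direction of their role; in each neonatal one, the 3 highest and 3 lowest members with at least 5 CPM; of levels, the 3 highest and 3 lowest; of the other lists, up to 3 called genes. Others were named after their values were seen. Alternatives were the block, DESeq2 1.42.0, limma-voom (limma 3.58.1), RLE factors or total counts, other count filters, other sets of libraries in the fit, and each replicate left out; the fit without all replicate 1 libraries was added after seeing the data. The fit was tested on simulated counts. Coordinates are from GENCODE M21 and promoter windows from RefSeq GRCm38.p6, the first listed per symbol. All 24 libraries were used. A marker gene and a promoter motif that were also examined are not reported here.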

Additional observations from a re-analysis of the deposited data

How the results depend on the processing

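Of the adult differences of members named, that of Nop58, not called at -0.23, turned to 0.026 with total counts, and no other changed direction under the alternatives run; Rrp12 was then near 0. With total counts in place of TMM, the adult counts of members called higher and lower were 24 and 2, the IFNg counts 5 and 1, the number lower with IFNa 9, and the number higher 1 with IL-6 and 1 with TNFa. With all 24 libraries in 1 fit, 6 members were called higher in adult cells, beside 2269 of all 15859 genes. Nol4l, Rrp1b, Heatr1, Polr1b, Wdr75, Nol6, Nop10, Utp11 and Nop16 were then not called. Without the count filter, Nol6, Polr1c and Nol9 were not called. DESeq2 called 4 members higher with IL-6 and 5 with TNFa, beside 254 and 926 of all 14626 genes. A fit of only the 2 groups compared called 1 higher with IL-6, beside 65 of 13246 genes. With the replicate number as a block (the pairing of same-numbered neonatal libraries), 6 members were called higher with IL-6, 10 lower with IFNa and 7 higher with TNFa; the block moved no other count of members by over 1.5 times. Without the replicate 1 libraries of all 6 neonatal groups, an alternative chosen after seeing the data, 3 were higher with IFNg, 1 with IL-6, 0 with TNFa, and 0 lower with IFNa; this fit has fewer samples and 14146 genes. Leaving out each replicate in turn gave 8 to 13 higher and 3 to 9 lower in adult cells. Over all genes these fits called 2619 to 3489 higher and 2104 to 3030 lower. In neonatal cells 6 to 8 members were higher with IFNg, 1 with IL-6 and 0 to 2 with TNFa. Over all genes 850 to 1104, 46 to 70 and 455 to 633 were higher. With IFNa 5 members were higher and 2 to 4 lower, beside 1014 to 1259 and 401 to 740 of all genes. With the mixture 7 to 8 were higher and 21 to 24 lower, beside 1936 to 2476 and 1851 to 2135 of all genes. Rrp12 with the mixture, not called at 0.14, was at -0.26 with total counts. The cause of these shifts was not tested. Members under about 1 CPM, Nol3 and Nol4 among them, had too few reads for a difference to be detectable.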
